A study of Mus musculus with 4 samples.

Results

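Axon guidance ligands and receptors were examined in the developing forebrain of *Gsdmd* conditional knockout embryos. The genes were the protein-coding ephrins, Eph receptors, semaphorins of classes 3 to 7, plexins, neuropilins, Slits, Robos, netrins, Unc5 receptors and *Dcc*, picked by symbol. Of 68 genes with such a symbol, 64 had at least 40 counts over the 4 libraries and are the members described here, of 26955 genes in the table. The other four were *Epha1* with 31 counts in all, *Sema3d* with 38, *Plxnb3* with 8 and *Ntn5* with 5.

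Growing axons are steered by pairs of cues and receptors. Secreted cues (netrins, Slits, class 3 semaphorins) act at a distance, while ephrins and the membrane-bound semaphorins act by contact. Netrin-1 attracts axons through DCC and repels them through UNC5 receptors, Slits repel through Robos, semaphorins act through plexins (class 3 mostly with a neuropilin as co-receptor), and ephrins bind Eph receptors of the matching A or B class. In the forebrain these systems also set regional boundaries, place migrating neurons and guide the paths between thalamus and cortex.

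The comparison asked how the absence of *Gsdmd*, which encodes the pore-forming protein of pyroptosis, altered gene expression in the E13 brain. Libraries of C57BL/6 *Gsdmd* fl/fl;Nestin-Cre embryos (cKO, replicates 2 and 6) were set against WT libraries (replicates 4 and 5), with 2 libraries per group. The labels give brain, day 13 and WT, whereas the study's methods give cerebral cortex, day 13.5 and *Gsdmd* fl/fl for the controls. Cre under the Nestin promoter acts in neural progenitor cells and their progeny, so vessels, blood and microglia would keep the floxed gene.

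*Gsdmd* itself had 13 and 7 counts in the cKO libraries, against 54 and 43 counts in the WT libraries (log2 fold change -2.34, with an adjusted p of 0.0846 in edgeR's quasi-likelihood fit). Total counts ran from 17863433 to 18205945 in cKO and from 16962553 to 17377394 in WT. Markers of the dorsal telencephalon were plentiful, with summed levels of 2509 and 2796 CPM in cKO and 2422 and 2215 CPM in WT (CPM is the count scaled to library size with edgeR's TMM factors). The midbrain and hindbrain markers *En1*, *En2* and *Lmx1b* together stayed at or under 0.298 CPM in every library. WT replicate 5 was the only library with abundant *Xist* (7640 counts, against 1 to 12 in the others), a female profile that no other library had. Whether each library is a separate embryo is not stated, so the p-values measure the spread between these libraries, which may be technical.

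None of the 64 members passed the quasi-likelihood test of edgeR, with p adjusted over the 15804 genes tested and a threshold of 0.05. Over all of those genes 31 passed as lower in cKO (0.196%) and 1 as higher (0.00633%). At an unadjusted p under 0.05, 6 members were lower (*Efna5*, *Ntn1*, *Ephb3*, *Sema6a*, *Plxnc1* and *Sema3b*) and 1 was higher (*Slit3*), which is 9.38% and 1.56% of the members, beside 3.79% and 3.32% of all tested genes. DESeq2 and edgeR's likelihood ratio test each called *Efna5* and *Ntn1* lower and no other member, and limma-voom called 0. In 15 members (23.4%, beside 20.3% of tested genes) both cKO libraries were below both WT libraries, and in 7 (10.9%, beside 16.9%) both were above. Such groups are called apart in what follows, and the groups of the other 42 members overlapped. As a set the members were centred where other genes were, with a median log2 fold change of -0.01, the same as over all tested genes. Their summed level was 5831 and 6161 CPM in cKO, against 5845 and 5989 CPM in WT.

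**Figure D1:**
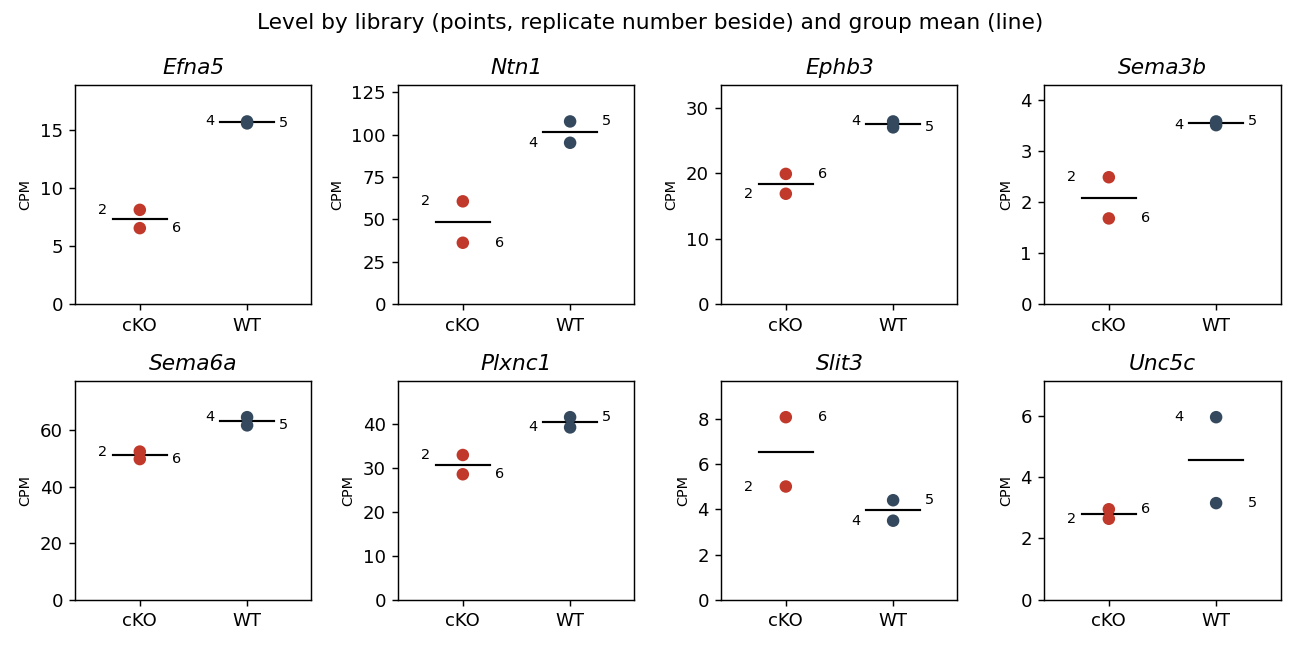
Levels in CPM (vertical axes from 0) of 8 guidance genes in the 2 cKO libraries (left, red) and the 2 WT libraries (right, dark), with the replicate number beside each point and the group mean as a line. In every panel except *Slit3*, both cKO libraries are below both WT libraries. *Slit3* is the only panel with cKO above WT, and *Unc5c* shows WT replicates 4 and 5 far apart.

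Ephrin-A5, a GPI-anchored repulsive ligand for EphA receptors that patterns maps of cortical and thalamic axons, was the ephrin with the largest difference. *Efna5* (ENSMUSG00000048915, chromosome 17 from 62604184 to 62881317, minus strand) had 8.10 and 6.52 CPM in cKO replicates 2 and 6, against 15.7 and 15.5 CPM in WT replicates 4 and 5. The cKO libraries thus lay well under a WT pair that hardly differed. The log2 fold change was -1.09 with a standard error of 0.18 and a 95% interval of -1.50 to -0.69, and its adjusted p was 0.0712 (edgeR, quasi-likelihood). The gene passed with DESeq2 (adjusted p = 0.00429) and with edgeR's likelihood ratio test (0.000157), but not with limma-voom (0.0685). In the quasi-likelihood fit it also did not pass with DESeq2's size factors (0.0888), a filter of 1 CPM (0.0661) or no filter (0.395). Nor did it pass when WT replicate 5 was left out. Among the alternatives its log2 fold change ran from -1.26 (without cKO replicate 2) to -0.93 (without cKO replicate 6).

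The upstream sequence of *Efna5* is shown because the gene had the smallest p of all members and because most upstream sequences of the members held a GC box. It covers the 250 bases before the RefSeq start site (GRCm38.p6, chr17:62881318-62881567, minus strand, 5′ to 3′), with capitals marking each GC box (GGGCGG on either strand).

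Efna5: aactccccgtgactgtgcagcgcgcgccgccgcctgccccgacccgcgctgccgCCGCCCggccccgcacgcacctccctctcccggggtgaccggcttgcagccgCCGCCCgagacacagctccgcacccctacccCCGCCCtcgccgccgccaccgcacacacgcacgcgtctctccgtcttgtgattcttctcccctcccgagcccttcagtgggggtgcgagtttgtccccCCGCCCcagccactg

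This stretch held 4 GC boxes, no TATA box (TATAAA), no E-box (CAGCTG) and no homeobox core (TAATTA), and 74.8% of its bases were G or C. Upstream sequences of the same length were at hand for 70 start sites of 54 members, and 51 of these (72.9%) held a GC box, beside 32.7% of 32851 start sites of all genes. The start sites of all genes were not filtered by expression, whereas the members had at least 40 counts. How common GC boxes are among other expressed genes was not examined. A TATA box was found in 2.86% of the members' sequences and in 12.4% of all. The E-box (14.3% and 13.0%) and the homeobox core (4.29% and 4.84%) were about as common in both, and the median GC content was 64.4% for the members and 52.4% for all. These matches describe letters in a window and are no evidence of binding.

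No other ephrin had groups apart or an interval that left out 0. *Efnb1*, an X-linked transmembrane ligand of EphB receptors and the most abundant member by length, had 394 and 465 CPM in cKO and 431 and 413 CPM in WT (log2 fold change 0.03, 95% interval -0.25 to 0.30). *Efnb3*, the midline ephrin that keeps corticospinal axons on their side in the spinal cord, had 182 and 190 CPM in cKO and 178 and 236 CPM in WT. The groups overlapped for both genes. *Efna2* (log2 fold change -0.23) and *Efna4* (0.24) overlapped as well. Of the 8 ephrins, 5 had a log2 fold change below 0 and 3 above, with a median of -0.12. Groups were apart only for *Efna5*, beside 20.3% of tested genes apart below. *Efna1*, *Efna3* and *Efna4* are neighbours on chromosome 3, with gaps of 32.8 and 10.4 kb, and their log2 fold changes (-0.17, 0.06 and 0.24) did not share a direction.

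Among the Eph receptors, the receptor tyrosine kinases that read ephrins, *Ephb3* stood lowest by p. It is a receptor for B-class ephrins that takes part, with *Ephb2*, in the formation of the corpus callosum and the anterior commissure. *Ephb3* (chromosome 16 from 21204755 to 21223305) had 16.9 and 19.9 CPM in cKO replicates 2 and 6, against 27.9 and 27.0 CPM in WT replicates 4 and 5, with the log2 fold change at -0.58 (standard error 0.16, adjusted p = 0.389 from edgeR). Both cKO libraries were below both WT libraries. *Ephb2*, the receptor with the highest level, had 263 and 309 CPM in cKO and 279 and 306 CPM in WT, so the partner of *Ephb3* overlapped between the groups (log2 fold change -0.03, 95% interval -0.32 to 0.26).

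The A-class receptors *Epha3*, *Epha4*, *Epha5*, *Epha7* and *Epha8* had overlapping groups. *Epha3*, *Epha4*, *Epha5* and *Epha7* had log2 fold changes of -0.01, 0.04, 0.08 and -0.01. The lowest bound of their 95% intervals was -0.353 (*Epha7*) and the highest was 0.34 (*Epha5*). *Epha8* had 12.9 and 11.8 CPM in cKO and 8.09 and 14.05 CPM in WT (log2 fold change 0.16), with WT replicates 4 and 5 on either side of the cKO libraries. *Epha4*, which answers ligands of both classes, had 110 and 110 CPM in cKO and 115 and 99.0 CPM in WT.

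The A-class receptors with the lowest levels had log2 fold changes below 0 and did not pass the test. *Epha6* had 4 and 10 counts in cKO and 15 and 16 counts in WT (log2 fold change -1.21, 95% interval -2.48 to 0.06). *Epha10*, whose protein lacks kinase activity, had 30 and 30 counts in cKO and 44 and 44 counts in WT (-0.63, -1.28 to 0.02), and *Epha2* had a log2 fold change of -0.29 with an interval from -0.82 to 0.24. These levels are low, and the intervals are wide and include 0. Of 13 Eph receptors, 9 were below 0 and 4 above, 4 had groups apart (*Ephb3*, *Epha10*, *Epha6* and *Epha2*, all with cKO below WT), and the median was -0.01. Over all tested genes 20.3% were apart with cKO below WT and 16.9% with cKO above.

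Netrin-1, the secreted attractant of commissural axons that in the embryonic telencephalon is made mainly in ventral regions, differed between the genotypes by about as much as ephrin-A5. *Ntn1* (ENSMUSG00000020902, chromosome 11 from 68209364 to 68400823, minus strand) had 60.6 and 36.1 CPM in cKO replicates 2 and 6, against 95.2 and 108 CPM in WT replicates 4 and 5. Both cKO libraries were below both WT libraries, and the cKO libraries themselves differed by 0.75 on the log2 scale, a gap exceeded among the members only by *Epha6* and *Dcc*. The log2 fold change was -1.07 with a standard error of 0.21 and a 95% interval of -1.54 to -0.60, and the adjusted p was 0.146 (edgeR, quasi-likelihood). DESeq2 (adjusted p = 0.000228) and the likelihood ratio test (0.000561) called *Ntn1*, whereas limma-voom (0.118) did not. The quasi-likelihood fit also did not call it with DESeq2's size factors (0.191), a filter of 1 CPM (0.154) or no filter (0.771). Leaving out cKO replicate 2 gave a log2 fold change of -1.49 and leaving out cKO replicate 6 gave -0.73. Without WT replicate 5 the log2 fold change was -0.97, and the gene was not called.

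Ventral forebrain markers were lower in cKO, as *Ntn1* was. All 8 ventral telencephalic markers had a log2 fold change below 0 (median -0.79), 7 had groups apart, and 7 had an unadjusted p under 0.05, while none passed after adjustment in edgeR. Over all tested genes 20.3% were apart below and 3.79% were lower at an unadjusted p under 0.05. The summed level of the ventral markers was 783 and 532 CPM in cKO replicates 2 and 6, against 1053 and 1176 CPM in WT replicates 4 and 5, the same order of the 4 libraries as for *Ntn1*. This order was not particular to ventral markers, since the summed erythroid and mural cell markers had it as well. *Nkx2-1*, the transcription factor of the medial ganglionic eminence, had 48.3 and 17.4 CPM in cKO and 125 and 147 CPM in WT. No marker of this list was at 0 in any library.

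Of 7 tested markers of the diencephalon and hypothalamus 6 were below 0 and 1 above, and 3 passed as lower (*Hmx2*, *Hmx3* and *Otx2*), beside 0.196% of all tested genes. *Lhx9*, the marker above 0, had 27.7 and 34.7 CPM in cKO and 22.1 and 22.9 CPM in WT (log2 fold change 0.47, groups apart, not called). The list summed to 49.9 and 54.5 CPM in cKO and 70.8 and 85.2 CPM in WT, with *Hmx2* at 0 counts in both cKO libraries. The 7 erythroid markers were all below 0 and summed to 441 and 405 CPM in cKO and 513 and 790 CPM in WT. The 3 mural cell markers summed to 48.3 and 45.2 CPM in cKO and 52.1 and 58.3 CPM in WT. The dorsal telencephalic markers were above 0 for 7 of 8 (median 0.26), with groups apart above for 5, beside 16.9% of tested genes. The 5 neuron markers were all below 0 (median -0.145), with groups apart below for 3, beside 20.3% of tested genes. Their summed levels overlapped (3857 and 4341 CPM in cKO, 4029 and 5115 CPM in WT). Of the tested mural cell, microglial, meningeal and endothelial markers 3 each were below 0, with 0, 1, 1 and 3 above. No erythroid, dorsal, neuron, mural cell, microglial, meningeal or endothelial marker passed after adjustment in edgeR. What part these marker differences had in the levels of *Ntn1*, *Efna5* or any other member was not tested, and in bulk RNA fewer cells of a type and less RNA per cell cannot be told apart.

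**Figure D2:**
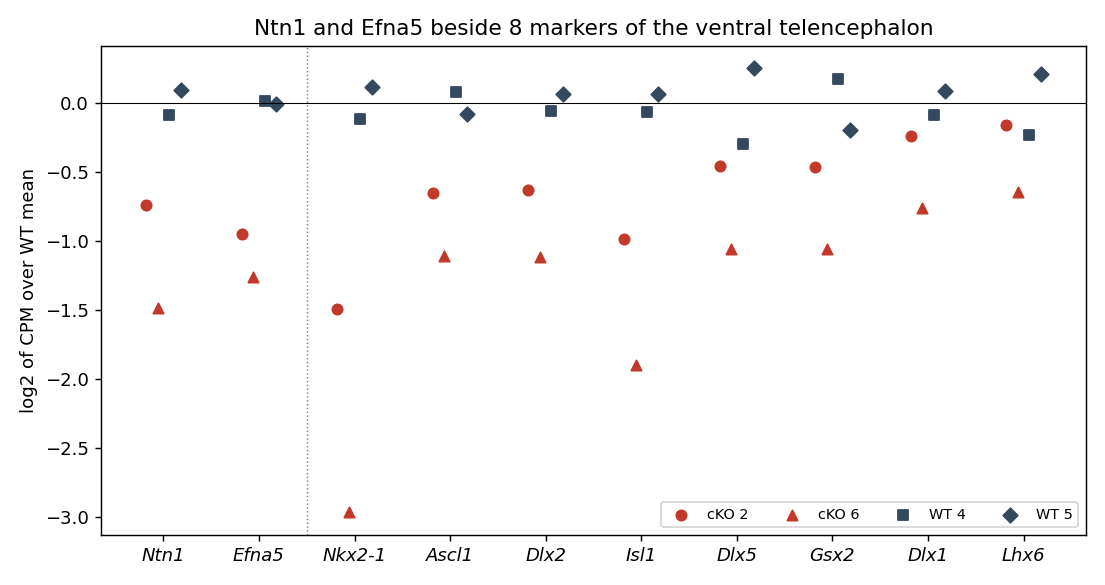
Level of *Ntn1*, *Efna5* and the 8 ventral telencephalic markers in each library, as log2 of CPM over the mean of the WT libraries (vertical axis), with circles and triangles for cKO replicates 2 and 6 and squares and diamonds for WT replicates 4 and 5. For *Ntn1*, *Efna5* and every marker, cKO replicate 6 is the lowest library and cKO replicate 2 lies above it, and *Nkx2-1* in cKO replicate 6 is the lowest point.

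*Ntn4*, a netrin of basement membranes and the only other netrin with enough counts, had 18.7 and 13.8 CPM in cKO and 22.4 and 17.1 CPM in WT, with overlapping groups (log2 fold change -0.28, 95% interval -0.74 to 0.18). For *Dcc* and the Unc5 receptors every interval included 0. *Dcc*, the receptor for attraction, had 3.58 and 6.36 CPM in cKO replicates 2 and 6 and 5.28 and 4.46 CPM in WT replicates 4 and 5, a log2 fold change of 0.03 with an interval from -0.63 to 0.69. The 2 cKO libraries differed by more than the groups did. *Unc5a*, *Unc5b* and *Unc5d*, receptors for repulsion, had log2 fold changes of 0.07, -0.07 and 0.04 and overlapping groups. *Unc5c* had 2.64 and 2.955 CPM in cKO, against 5.96 and 3.155 CPM in WT (log2 fold change -0.70, 95% interval -1.44 to 0.03). Without WT replicate 4, the high library, the log2 fold change was -0.17.

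Slits, the secreted repellents of the midline, went in different directions. *Slit3* (chromosome 11 from 35121224 to 35708507) had 5.01 and 8.08 CPM in cKO replicates 2 and 6, against 3.50 and 4.405 CPM in WT replicates 4 and 5. It was the only member higher in cKO at an unadjusted p under 0.05 (log2 fold change 0.73, standard error 0.28, adjusted p = 0.642 in edgeR). The groups were apart, with cKO replicate 6 well above the other libraries. Without it the log2 fold change was 0.36, and without cKO replicate 2 it was 1.03 and passed (adjusted p = 0.0373, over a range of 0.0373 to 0.9999 among the alternatives). *Slit1*, the Slit with the highest level, had 84.2 and 94.45 CPM in cKO and 103 and 99.8 CPM in WT, and *Slit2* had 15.1 and 18.5 CPM in cKO and 20.1 and 20.1 CPM in WT. Both had groups apart with cKO below WT, with small log2 fold changes (-0.19 and -0.26) and intervals that crossed 0.

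For each Robo, the receptors of Slits, the interval included 0. *Robo1*, which acts in migrating interneurons and in thalamic axons, had 77.8 and 65.1 CPM in cKO, against 79.7 and 92.0 CPM in WT (log2 fold change -0.26, 95% interval -0.55 to 0.02). *Robo2* had a log2 fold change of 0.01 with an interval from -0.24 to 0.26. *Robo3*, a divergent family member that controls commissural crossing, had -0.09, and the endothelial *Robo4*, which lies 0.554 kb from it on chromosome 9, had -0.02. For *Robo3*, cKO replicate 2 (46.7 CPM) and WT replicate 4 (46.6 CPM) were high and cKO replicate 6 (32.4 CPM) and WT replicate 5 (37.9 CPM) low, so the libraries split within each group.

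**Figure D3:**
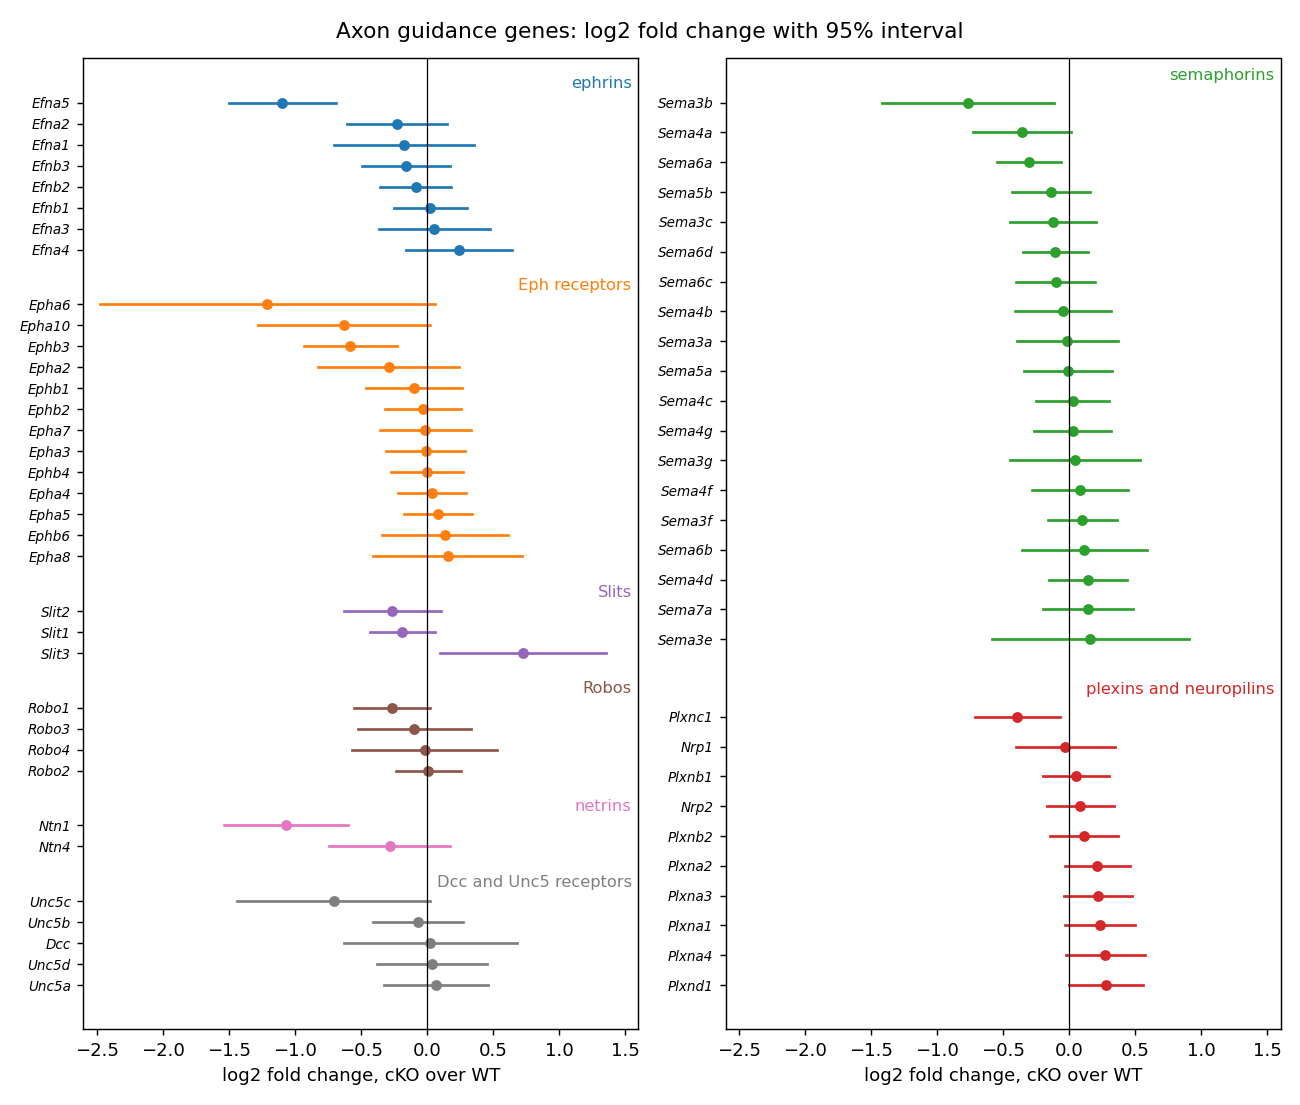
Log2 fold change of cKO over WT (horizontal axis) of the 64 members as points with 95% intervals as lines, coloured and labelled by family and sorted within it. *Efna5* and *Ntn1* lie near -1 with intervals below 0, the plexins of class A and *Plxnd1* lie a little above 0, and 43 of the 64 intervals stay within a 1.5-fold change.

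Semaphorins, the largest of these families, held 2 members of 19 that were lower at an unadjusted p under 0.05, beside 3.79% of all tested genes. *Sema6a*, a transmembrane semaphorin that binds plexins A2 and A4 and acts in thalamocortical paths, had 52.45 and 49.8 CPM in cKO, against 64.6 and 61.7 CPM in WT (log2 fold change -0.31, standard error 0.11, adjusted p = 0.618 from edgeR). Replicates of each group were close, and *Sema6a* had the smallest p of the semaphorins. *Sema3b*, a secreted semaphorin of ventral midline tissue, had 45 and 30 counts in cKO and 61 and 60 counts in WT (log2 fold change -0.77, adjusted p = 0.635 from edgeR), whereas its neighbour on chromosome 9, *Sema3f*, had 0.10. *Sema4a* had 33.9 and 32.3 CPM in cKO and 36.3 and 48.75 CPM in WT, and without WT replicate 5, the high library, its log2 fold change was -0.12. *Sema4d*, the ligand of plexin B1, was the only semaphorin with both cKO libraries above both WT libraries (39.9 and 45.4 CPM in cKO, 39.5 and 37.8 CPM in WT), by 0.14 on the log2 scale.

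The remaining semaphorins had intervals that included 0, from *Sema6c* as the most abundant (213 and 218 CPM in cKO, 208 and 255 CPM in WT) to *Sema3e* as the least, with 26 to 40 counts per library. *Sema3a*, the classical repellent of cortical axons, had 25.45 and 19.85 CPM in cKO and 23.5 and 22.2 CPM in WT (log2 fold change -0.01, 95% interval -0.40 to 0.37). Over all 19 semaphorins, 10 were below 0 and 9 above, the median was -0.01, and 4 had cKO apart below WT and 1 apart above. The shares over all tested genes were 20.3% apart below and 16.9% apart above.

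Among the plexins, the receptors of semaphorins, and their co-receptors most members were above 0. Of 10 plexins and neuropilins 8 had a log2 fold change above 0, against 47.5% of all tested genes, with a median of 0.16. In 5 of them both cKO libraries were above both WT libraries (*Plxna1*, *Plxna2*, *Plxna3*, *Plxna4* and *Plxnd1*), and in *Plxnc1* both were below, beside 16.9% of tested genes apart above and 20.3% apart below.

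*Plxnd1*, the receptor of Sema3E, had 199 and 230 CPM in cKO, against 184 and 170 CPM in WT (log2 fold change 0.28, standard error 0.12, adjusted p = 0.704 in edgeR). *Plxna4*, a partner of neuropilin-1 for Sema3A, had 198 and 232 CPM in cKO and 191 and 165 CPM in WT (0.27, -0.03 to 0.57). The class A plexins were close to each other in size, with *Plxna1* at 0.23, *Plxna2* at 0.21 and the X-linked *Plxna3* at 0.22. None of them passed, and each interval included 0. The summed level of the family was 2272 and 2362 CPM in cKO, against 2103 and 2042 CPM in WT. Beside this, the dorsal telencephalic markers had a median of 0.26, and their part in the plexin levels was not tested.

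*Plxnc1*, the receptor of Sema7A, was the plexin on the other side of 0. It had 32.9 and 28.55 CPM in cKO and 39.2 and 41.55 CPM in WT (log2 fold change -0.39, standard error 0.14, adjusted p = 0.632 from edgeR). Its ligand *Sema7a* had overlapping groups (log2 fold change 0.14). *Plxnb2*, the plexin with the highest level, had 408 and 447 CPM in cKO and 408 and 385 CPM in WT. The co-receptors *Nrp1* (-0.03) and *Nrp2* (0.09) overlapped as well, with 15.9 and 18.8 CPM of *Nrp1* in cKO and 16.5 and 19.0 CPM in WT.

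**Figure D4:**
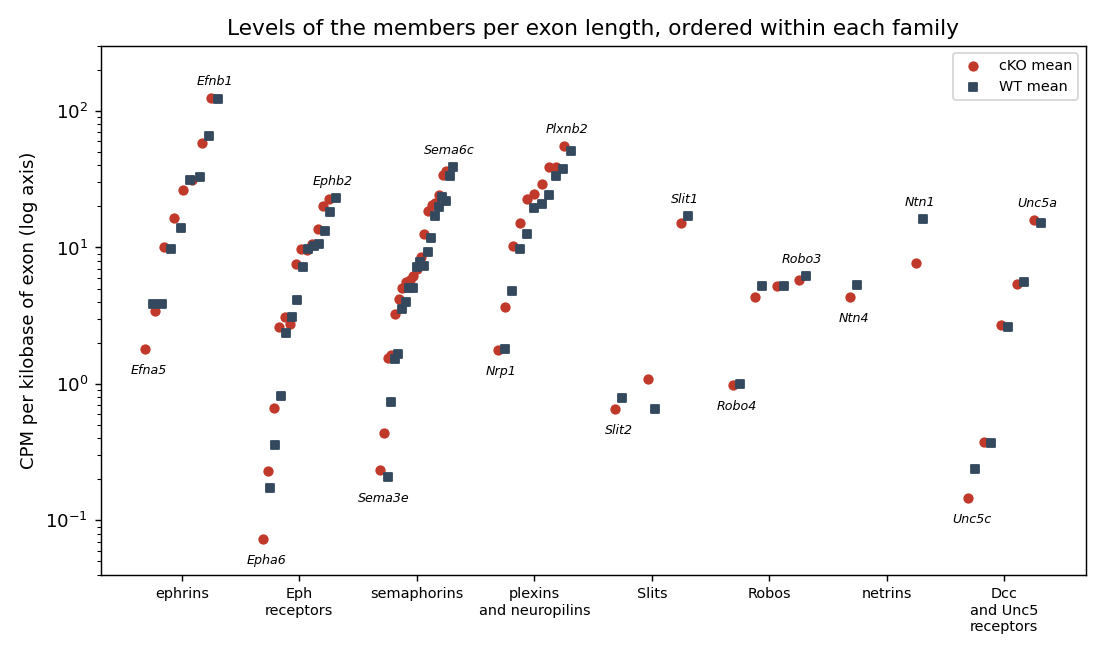
Mean level per kilobase of exon (vertical log axis, in CPM per kilobase) of each member in cKO (red circles) and WT (dark squares), ordered within each family along the horizontal axis. *Efnb1*, *Efnb3*, *Plxnb2* and *Plxnb1* hold the highest levels, and *Epha6*, *Unc5c* and *Sema3e* the lowest.

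By level per exon length the members covered most of the range of expressed genes. The median member had 7.25 CPM per kilobase, beside 4.77 CPM per kilobase over all tested genes, with exon lengths from GENCODE M21. *Efnb1* led with 124 CPM per kilobase in cKO and 122 in WT, above 97.8% of tested genes, followed by *Efnb3* (58.4 and 65.1) and *Plxnb2* (55.4 and 51.3). At the low end were *Epha6* (0.0735 and 0.171), *Unc5c* (0.146 and 0.238), *Sema3e* (0.233 and 0.209), *Epha10* (0.231 and 0.357) and *Dcc* (0.377 and 0.370). *Ntn1* was at 7.70 CPM per kilobase in cKO and 16.2 in WT, which in WT is close to *Slit1*, and *Efna5* was the lowest ephrin at 1.81 in cKO and 3.87 in WT. Among the Slits, *Slit1* was at 15.1 CPM per kilobase in cKO and 17.2 in WT, against 0.660 and 0.790 for *Slit2* and 1.08 and 0.651 for *Slit3*.

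The larger of the 2 gaps between replicates of a group exceeded the absolute log2 fold change in 47 of 64 members (73.4%), a share close to the 74.8% of all tested genes. The median absolute log2 fold change was 0.12, and the median gap was 0.20 between the cKO libraries and 0.19 between the WT libraries. For 43 members (67.2%) the 95% interval stayed within a 1.5-fold change in either direction, beside 56.7% of tested genes, and the absolute log2 fold change reached 1 in 3 members (4.69%), beside 2.37%.

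**Figure D5:**
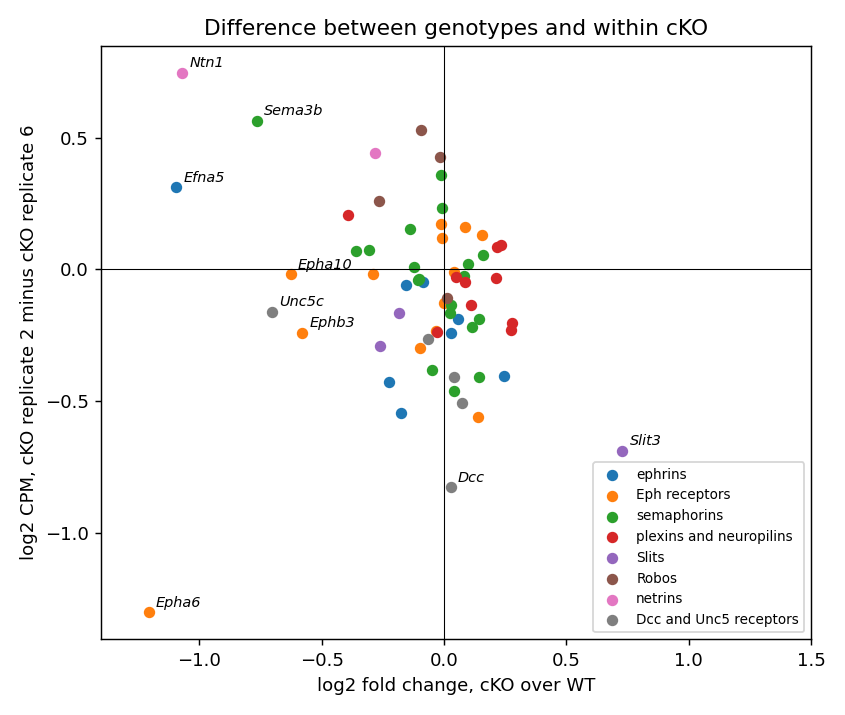
Log2 fold change of cKO over WT (horizontal axis) against the log2 difference of cKO replicate 2 minus cKO replicate 6 (vertical axis) for the 64 members, coloured by family. *Ntn1* and *Efna5* lie at the left with cKO replicate 6 the lower library. *Dcc* differed between the cKO libraries, with a log2 fold change between the genotypes of 0.03 (95% interval -0.63 to 0.69).

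Among further genes of the pathway none was called by edgeR's quasi-likelihood fit over all genes. Of 23 other cues and co-receptors 6 were below 0 and 17 above (median 0.13), with 0 lower and 3 higher at an unadjusted p under 0.05 (3.79% and 3.32% of all tested genes). These 3 were *Rgmb* (log2 fold change 0.40), *Neo1* (0.31) and *Flrt1* (0.56). Neogenin, the product of *Neo1*, is the relative of DCC that binds netrins and RGM proteins. *Neo1* had 207 and 225 CPM in cKO, against 177 and 172 CPM in WT. *Flrt1* had 18.4 and 29.2 CPM in cKO and 17.0 and 15.4 CPM in WT, and it was called without cKO replicate 2 (adjusted p = 0.00396, over a range of 0.00396 to 0.9998).

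Of 42 intracellular effectors 17 were below 0 and 25 above (median 0.04), with 2 lower and 6 higher at an unadjusted p under 0.05, again beside 3.79% and 3.32% of all tested genes. *Pak3*, a kinase downstream of Rac and Cdc42, had 55.6 and 48.0 CPM in cKO, against 83.55 and 72.1 CPM in WT (log2 fold change -0.59, standard error 0.12, adjusted p = 0.189 in edgeR). The likelihood ratio test called it (adjusted p = 0.0153), as did the fit without cKO replicate 2 (0.00861, over a range of 0.00861 to 0.789). *Dpysl3*, a collapsin response mediator protein of growth cones, had 1508 and 1480 CPM in cKO and 1140 and 1212 CPM in WT (0.35, adjusted p = 0.461 from edgeR). *Farp2*, an exchange factor that binds class A plexins, had 4.19 and 2.90 CPM in cKO and 2.01 and 1.79 CPM in WT (0.90, adjusted p = 0.572 from edgeR).

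Of 9 axonal adhesion molecules 4 were below 0 and 5 above (median 0.01). *Cntn1* had 11.5 and 8.70 CPM in cKO, against 13.8 and 16.0 CPM in WT (log2 fold change -0.56, adjusted p = 0.604 from edgeR). *Nfasc* (0.26) and *L1cam* (0.21) had both cKO libraries above both WT libraries and did not pass.

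The exons of a member rarely overlap those of another gene. For 4 members over 5% of the exonic bases lie within exons of another annotated gene (*Efna3* 14.1%, *Plxna1* 10.7%, *Efna4* 10.5% and *Sema4c* 7.27%), and reads there cannot be told apart, since no source used here states the strand setting. None of the members lower at an unadjusted p under 0.05 was among them.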

How the data were processed

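Read counts per gene were deposited as whole numbers. The submitters' processing notes list HTSeq 0.6.0, TopHat2 2.0.12 and Bowtie2 2.2.3, and mm9 as the build, whereas 92.9% of the gene positions equal those of GENCODE M21 on GRCm38, and coordinates are given as in the table. The deposited table also holds the authors' normalized mean (a signal divided by size factors), fold change as a ratio, log2 fold change and p-values, which were not used. The counts of 26955 genes were analysed with DESeq2 1.42.0, limma 3.58.1 and edgeR 4.0.16 under R 4.3.3. After filterByExpr and TMM scaling, 15804 genes entered glmQLFit and glmQLFTest, cKO against WT, without covariates, and p-values were adjusted by Benjamini-Hochberg over all of them. Standard errors were derived from the F statistic of each gene, and intervals from its F distribution. The common dispersion was 0.0169, a typical coefficient of variation of 13.0%. In simulated data for this comparison (15579 genes) the test found 29.9%, 68.2% and 97.0% of genes changed 1.5-fold, 2-fold and 4-fold, with 18 false calls.

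The genes named are, in each family, the 4 members with the smallest unadjusted p and the one with the highest CPM, and 3 of each further list. *Dcc*, *Epha3*, *Epha4*, *Epha5*, *Epha7*, *Plxna2*, *Plxna3*, *Nrp1*, *Nrp2*, *Sema3a*, *Sema3e*, *Sema3f*, *Sema7a*, *Efna1*, *Efna3* and *Epha8* were added after their values were seen. Members and lists were chosen with earlier results of these data known. Symbols were matched to RefSeq upstream sequences (GRCm38.p6). Alternatives tried were the likelihood ratio test, the Wald test and size factors of DESeq2, limma-voom, other filters, a prior count of 2, leaving out chromosomes X and Y, and leaving out each library.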

Additional observations from a re-analysis of the deposited data

How the results depend on the processing

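With 2 libraries per group, the calls depended on the tool and on single libraries. The count of members called lower was 2 (*Efna5* and *Ntn1*) with DESeq2 and with the likelihood ratio test, 0 with the other tools and filters, and 0 to 2 when each library was left out, with 0 only without WT replicate 5. The count of members called higher was 0 in every setting except that it ran from 0 to 1 when each library was left out (*Slit3* without cKO replicate 2). Members higher at an unadjusted p under 0.05 were 2 with DESeq2's size factors, limma-voom and without chromosomes X and Y, 3 with DESeq2 and without a filter, and 0 to 6 when each library was left out. Over all genes the calls were 68 lower and 13 higher with DESeq2, 124 and 24 with the likelihood ratio test and 8 and 0 without a filter, and 0 were higher with DESeq2's size factors, limma-voom or a filter of 1 CPM. They ran from 0 to 199 lower and from 0 to 93 higher when each library was left out, with 0 of both without WT replicate 5.

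Leaving out each library moved the family medians of the log2 fold change over -0.14 to 0.0031 for the Eph receptors, -0.31 to 0.064 for the Robos and -1.003 to -0.40 for the netrins. Among all alternatives the medians also changed sign for the ephrins (-0.22 to 0.024), the semaphorins (-0.068 to 0.088) and *Dcc* and the Unc5 receptors (-0.19 to 0.23). The medians of the Slits (-0.26 to -0.10) and of the plexins and neuropilins (0.11 to 0.19) kept their sign. The alternatives were run gene by gene only for the members named by the rule. Of these, 10 changed direction when a library was left out and none in another setting. Over these fits the log2 fold change ran from -0.35 (without WT replicate 4) to 0.071 (without WT replicate 5) for *Efnb3*, from -0.24 (without WT replicate 4) to 0.062 (without WT replicate 5) for *Sema6c* and from -0.085 (without cKO replicate 6) to 0.14 (without cKO replicate 2) for *Efnb1*. It ran from -0.14 (without cKO replicate 6) to 0.082 (without cKO replicate 2) for *Ephb2*, from -0.060 (without WT replicate 4) to 0.093 (without WT replicate 5) for *Robo2*, from -0.38 (without cKO replicate 2) to 0.16 (without cKO replicate 6) for *Robo3* and from -0.25 (without cKO replicate 2) to 0.19 (without cKO replicate 6) for *Robo4*. For the netrin receptors it ran from -0.19 (without cKO replicate 6) to 0.30 (without cKO replicate 2) for *Unc5a*, from -0.19 (without cKO replicate 6) to 0.063 (without cKO replicate 2) for *Unc5b* and from -0.16 (without cKO replicate 6) to 0.23 (without cKO replicate 2) for *Unc5d*. In each of these fits the lone library of a group is assumed to vary like the others. The cause of these changes was not tested. No paired analysis was possible because the groups share no replicate numbers.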
